A study of Neurospora crassa OR74A with 3 samples.

Results

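Messenger RNA was compared between 2 strains of Neurospora crassa, a mould that lives on plant material, to describe what differed when a cdt-2 deletion was added to a strain that already lacked clp1. Both strains were built in Δ3βG, in which 3 β-glucosidase genes are deleted, and β-glucosidases cut cellobiose to glucose. The strain Δ3βGΔncu05853 lacks ncu05853 as well, the locus of clp1 (NCU05853), whose product is a putative transporter-like protein. The strain Δ3βGΔcdt2Δncu05853 lacks the same genes and cdt-2 (NCU08114), which encodes a cellodextrin transporter of the plasma membrane. Mycelia of every strain grew in sucrose for 16 h and then stood in fresh medium with 2% cellobiose for 4 h. Each strain had 1 RNA sequencing library, and the Δ3βG library, with 8586155 gene reads, is given beside the pair as a level. The genes compared were the 7184 of 9730 with at least 100 reads over both libraries, and the libraries held 9465639 gene reads in Δ3βGΔncu05853 and 9808610 in Δ3βGΔcdt2Δncu05853. With 1 library a strain nothing here is checked by replicates, so p-values are left out, and every 95% interval covers counting error only. No library from a strain that lacks cdt-2 and carries clp1, from another carbon source or from before the transfer was used here.

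Filamentous fungi secrete cellulases when they sense short cellulose fragments such as cellobiose, which transporters of the sugar porter family bring into the cell. In N. crassa the zinc cluster regulators CLR-1 and CLR-2 switch on the cellulase genes, and XLR-1 serves the same purpose for xylanases. The repressor CRE-1 keeps such genes low when preferred sugars are at hand. Strains without the main β-glucosidases are known to make cellulases on cellobiose, because the disaccharide persists. In the Δ3βG and Δ3βGΔncu05853 libraries used here, the listed cellulase genes took 0.0133% and 0.0162% of gene reads. No library from before the transfer or from a strain with all its β-glucosidases was used. Whether cellobiose raised these genes in the 2 strains was thus not tested.

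The deleted genes were looked at first. cdt-2 had 1907 reads in Δ3βG, 2842 in Δ3βGΔncu05853 and 9 in Δ3βGΔcdt2Δncu05853, which is 250-fold lower (132 to 548) in the last than in Δ3βGΔncu05853. clp1 had 4190, 2 and 0 reads in the same order. Of the β-glucosidase genes, gh3-3 (NCU08755) had 14 and 21 reads in the strains compared and gh3-4 (NCU04952) had 14 and 13. gh1-1 (NCU00130) had 18 reads in Δ3βG, 47 in Δ3βGΔncu05853, with a Poisson interval of 34.5 to 62.5, and 0 in Δ3βGΔcdt2Δncu05853. A count of 0 allows up to 3 reads, the floor used below. The labels give both strains the same β-glucosidase deletions, so gh1-1 is a difference between these libraries that the labels do not name.

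The strain that also lacks cdt-2 held far more messenger RNA for most cellulose- and xylan-degrading enzymes and for their regulators clr-1, clr-2, xlr-1 and vib-1, and more for most genes of glycolysis and ethanol formation. It held far less for the hydrophobin gene eas and for 4 of 5 genes on the list of gluconeogenesis and the glyoxylate cycle, while the other markers of conidia and aerial hyphae lay on both sides. On reads scaled with TMM factors, 1244 of the 7184 genes (17.3%) stood 2-fold or more above Δ3βGΔncu05853, and 834 (11.6%) stood 2-fold or more below it. At 4-fold the numbers were 498 higher (6.93%) and 242 lower (3.37%), and 71.1% of genes lay within 2-fold. With at least 100 reads, the interval of a gene past 2-fold always leaves out a ratio of 1, so that adds no support. The interval lay wholly past 2-fold for 1003 of the higher and 560 of the lower genes. The upper tail was longer. Past 32-fold there were 93 higher and 28 lower genes, and past 512-fold 19 higher and 0 lower genes. The log2 ratio had a median of -0.01, a 5th percentile of -1.60 and a 95th percentile of 2.42.

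Which direction held more genes changed with the scaling. With totals of gene reads in place of TMM, the count past 2-fold was 864 upward and 1644 downward, and with totals of all reads in the file 939 and 1390. Without the 50 genes with most reads the split was 852 and 1676, and on totals without eas 641 and 2630. The log2 ratio of the median gene was shifted by -0.39, -0.29, -0.40 and -0.70 under these 4 scalings, whereas DESeq2 size factors gave 1250 and 826 genes. Positive log2 ratios smaller than 0.70 can thus change sign with the scaling.

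**Figure D1:**
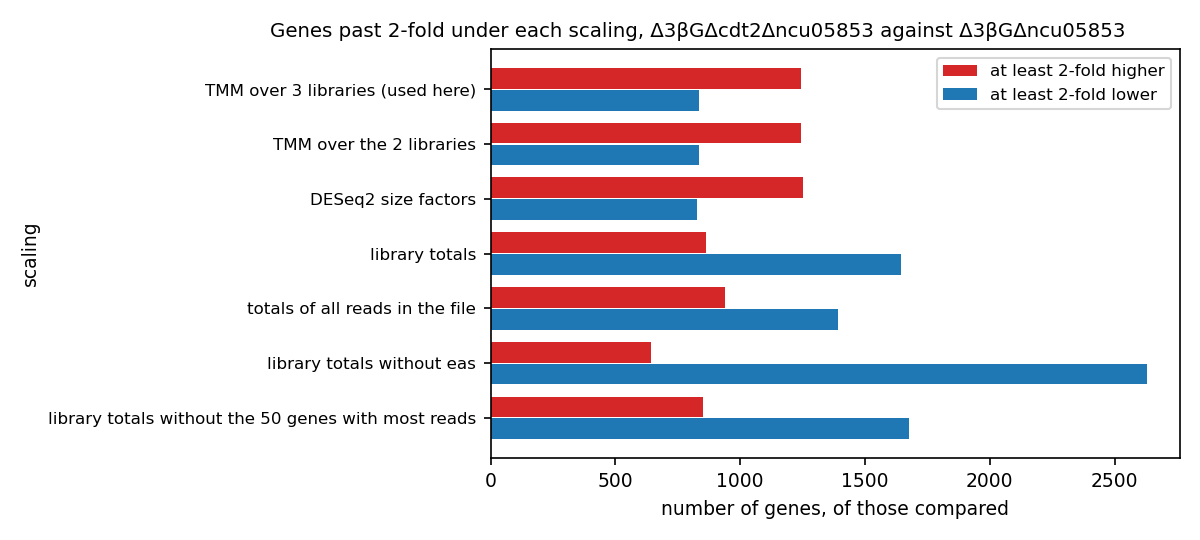
Number of genes at least 2-fold higher (red) and lower (blue) in Δ3βGΔcdt2Δncu05853 against Δ3βGΔncu05853, on the horizontal axis, under each scaling. TMM and DESeq2 size factors gave more higher than lower genes, and each scaling on totals gave more lower genes, up to 2630 without eas.

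The make-up of the libraries differed at the top. A single gene, eas (NCU08457), held 20.02% of gene reads in Δ3βGΔncu05853 and 0.305% in Δ3βGΔcdt2Δncu05853, where cbh-1 led with 6.50%. The 10 most abundant genes held 24.4% and 17.05% of gene reads, and 3 genes were among the 10 in both libraries. These 3 were tef-1, which encodes a translation elongation factor, the clock-controlled gene ccg-1, and NCU04951. Of the 100 most abundant genes of each library, 41 were shared. Among the 100 of Δ3βGΔcdt2Δncu05853, 77 were at least 2-fold higher there, and among the 100 of Δ3βGΔncu05853, 23 were lower and 18 higher.

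**Figure D2:**
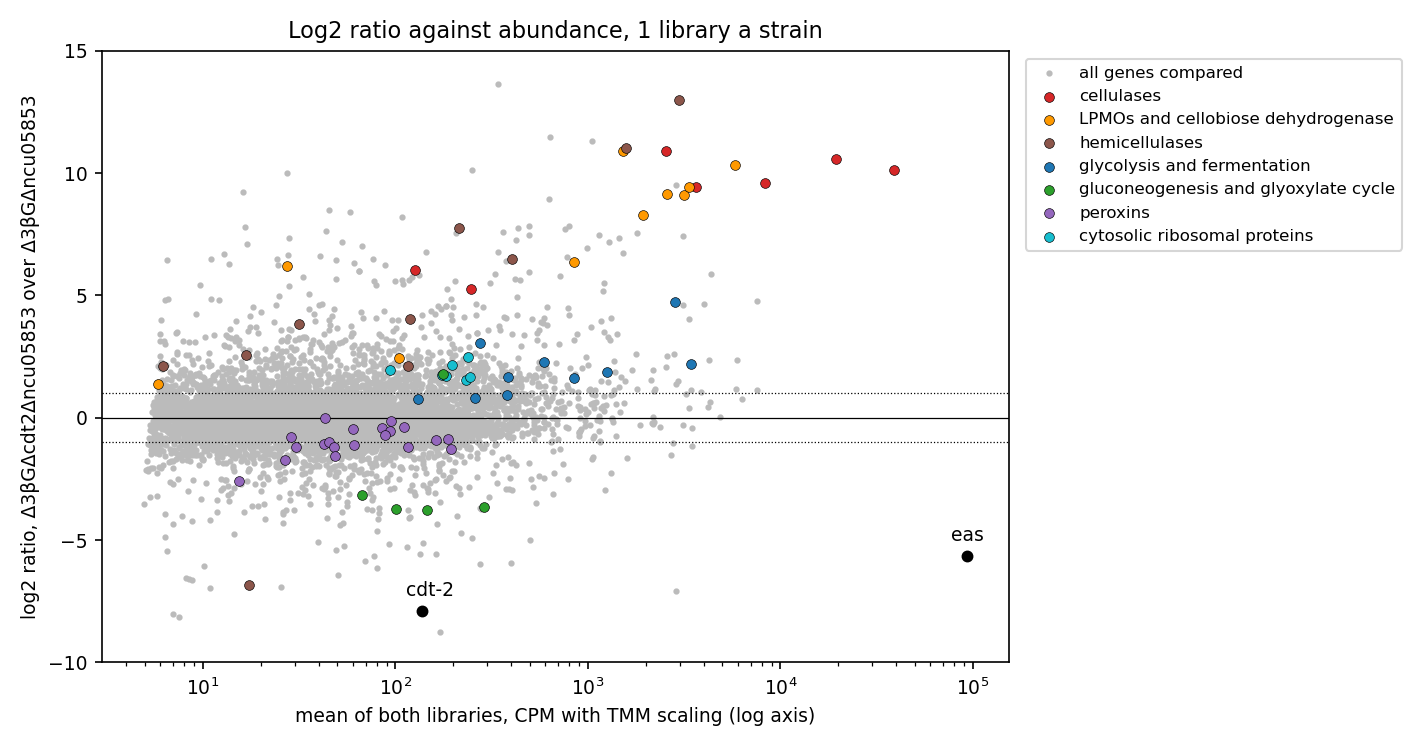
Log2 ratio of Δ3βGΔcdt2Δncu05853 over Δ3βGΔncu05853 against the mean CPM of both libraries (log axis), 1 point a gene, with 7 gene lists in colour and dotted lines at 2-fold. Cellulases and monooxygenases lie at the upper right, with cbh-1 at 10.12, and eas lies alone at the right with -5.65.

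Cellulase genes had 7 to 722 reads each in Δ3βGΔncu05853, and 3 of them, cbh-1, gh6-2 and gh6-3, had the most reads of all genes in Δ3βGΔcdt2Δncu05853. Of the 9 on the list, 7 had enough reads to compare and all 7 were past 2-fold upward, against 17.3% of all genes. Their log2 ratios were 5.28 to 10.89 (median 9.60). As a group they took 0.0162% of gene reads in Δ3βGΔncu05853 and 12.2% in Δ3βGΔcdt2Δncu05853. cbh-1 (NCU07340), which encodes a cellobiohydrolase of family 7, had 490 reads in Δ3βG, 722 in Δ3βGΔncu05853 and 637941 in Δ3βGΔcdt2Δncu05853, 1115-fold higher (1036 to 1201) in the last. Per kilobase of exon, its deposited RPKM was 16.3, 22.4 and 20374. gh6-2 (NCU09680), a cellobiohydrolase gene of family 6, had 243, 263 and 317009 reads, 1521-fold higher (1348 to 1723). gh6-3 (NCU07190), of the same family by name, had 155, 219 and 135043 reads, 778-fold higher (681 to 892). For the 3 genes the count in Δ3βGΔcdt2Δncu05853 stood far above those in the other two libraries.

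The endoglucanase genes followed, over lower counts. gh5-1 (NCU00762) had 27 and 41559 reads in the strains compared, 1942-fold higher (1334 to 2947). gh7-1 (NCU05057) was 688-fold higher (570 to 838), gh45-1 (NCU05121) 66.2-fold (48.2 to 93.3) and gh7-2 (NCU04854) 39.0-fold (32.7 to 46.9). Members of 1 enzyme class thus differed in size of change by more than their counting error. Both genes of the list that were not compared, gh6-1 (NCU03996) with 22 and 16 reads and gh7-4 (NCU05104) with 7 and 15, were under the minimum.

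Lytic polysaccharide monooxygenases cut cellulose by oxidation, and cellobiose dehydrogenase supplies them with electrons. Of 13 such genes, 10 were compared, and all 10 were past 2-fold upward (median log2 ratio 8.69), against 17.3% of all genes. The group took 0.0128% and 3.21% of gene reads. gh61-4 (NCU01050) had 55, 92 and 94684 reads in Δ3βG, Δ3βGΔncu05853 and Δ3βGΔcdt2Δncu05853, 1298-fold higher (1059 to 1611) in the last than in Δ3βGΔncu05853. gh61-7 (NCU00836), with 16 and 24910 reads in the strains compared, was 1964-fold higher (1209 to 3437), and gh61-5 (NCU08760), with 101 and 54963 reads, 687-fold higher (565 to 843). cdh-1 (NCU00206), for cellobiose dehydrogenase, was 546-fold higher (456 to 659). gh61-9 (NCU05969) was 5.47-fold higher (4.86 to 6.19) and cdh-2 (NCU05923), with 33 and 69 reads, 2.64-fold (1.72 to 4.12), so the group did not move as a block. gh61-8, gh61-10 and gh61-11 had between 9 and 42 reads and were not compared.

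Hemicellulase genes held both the gene with the second highest ratio of all and a gene near the bottom. gh11-2 (NCU07225), for a xylanase, had 7 reads in Δ3βG, 7 in Δ3βGΔncu05853 and 48428 in Δ3βGΔcdt2Δncu05853, 8728-fold higher (4236 to 21710.1). Another xylanase gene, gh10-1 (NCU05924), had 21, 15 and 25848 reads, 2174-fold higher (1318 to 3885). In contrast gh10-4 (NCU07130), of the same family by name, had 520, 355 and 2 reads, 141-fold lower (38.7 to 1166). Of the 10 members compared, 9 were past 2-fold upward and gh10-4 downward (median log2 ratio 3.94), against 17.3% and 11.6% of all genes. The list was planned with 24 genes, of which 11 carry a symbol. The galactosidase genes gh35-1 (NCU00642) and gh35-2 (NCU04623) were at 2.10 and 4.04.

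Of the β-glucosidase genes the strains still carry, gh3-6 (NCU07487) was 733-fold higher (589 to 923), with 81 and 47034 reads. gh3-5 (NCU05577) was 2.96-fold higher (2.70 to 3.25), gh3-1 stood at a log2 ratio of 1.88, and gh3-2 (NCU08054) was 1.70-fold higher (1.497 to 1.93), under the 2-fold line. The pectin-degrading genes gh28-2 and asd-1 were 5.36-fold (4.79 to 6.01) and 48.9-fold (34.5 to 71.8) higher. Xylose reductase xr (NCU08384), the first step of pentose use, had 84 and 3257 reads, 48.9-fold higher (39.4 to 61.5), and the xylulokinase gene xyk-1 was 3.09-fold higher (2.64 to 3.62).

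The other cellodextrin transporter gene, cdt-1 (NCU00801), had 882 reads in Δ3βG, 1501 in Δ3βGΔncu05853 and 70507 in Δ3βGΔcdt2Δncu05853, 59.3-fold higher (56.3 to 62.4). Its deposited RPKM of 2156 in Δ3βGΔcdt2Δncu05853 compares with 128 for cdt-2 in Δ3βGΔncu05853. The glucose transporter gene hgt-1 (NCU10021) was 2.24-fold higher (2.18 to 2.31), and sor-4 (NCU02582), also known as rco-3 and linked to glucose sensing, was 1.34-fold lower (1.21 to 1.47).

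The regulators of these enzymes were higher as well. clr-2 (NCU08042) had 42, 57 and 8004 reads in Δ3βG, Δ3βGΔncu05853 and Δ3βGΔcdt2Δncu05853, 177-fold higher (137 to 234). clr-1 (NCU07705) had 648, 784 and 4821 reads, 7.76-fold higher (7.19 to 8.38). xlr-1 (NCU06971) was 18.3-fold higher (16.7 to 20.2), vib-1 (NCU03725), which acts upstream of cellulase induction, 17.6-fold (15.9 to 19.5), and col-26 (NCU07788), a regulator of carbon use, 2.42-fold (2.28 to 2.56). In the other direction rca-1 (NCU01312) was 9.56-fold lower (7.92 to 11.6), and cre-1 (NCU08807) 1.89-fold lower (1.71 to 2.09). Of 10 regulators compared, 5 were at least 2-fold higher and 1 lower, against 17.3% and 11.6% of all genes. rco-1, a corepressor gene, stood at -0.10 and nit-2 at 0.20, and the latter is smaller than the shift that scaling makes.

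**Figure D3:**
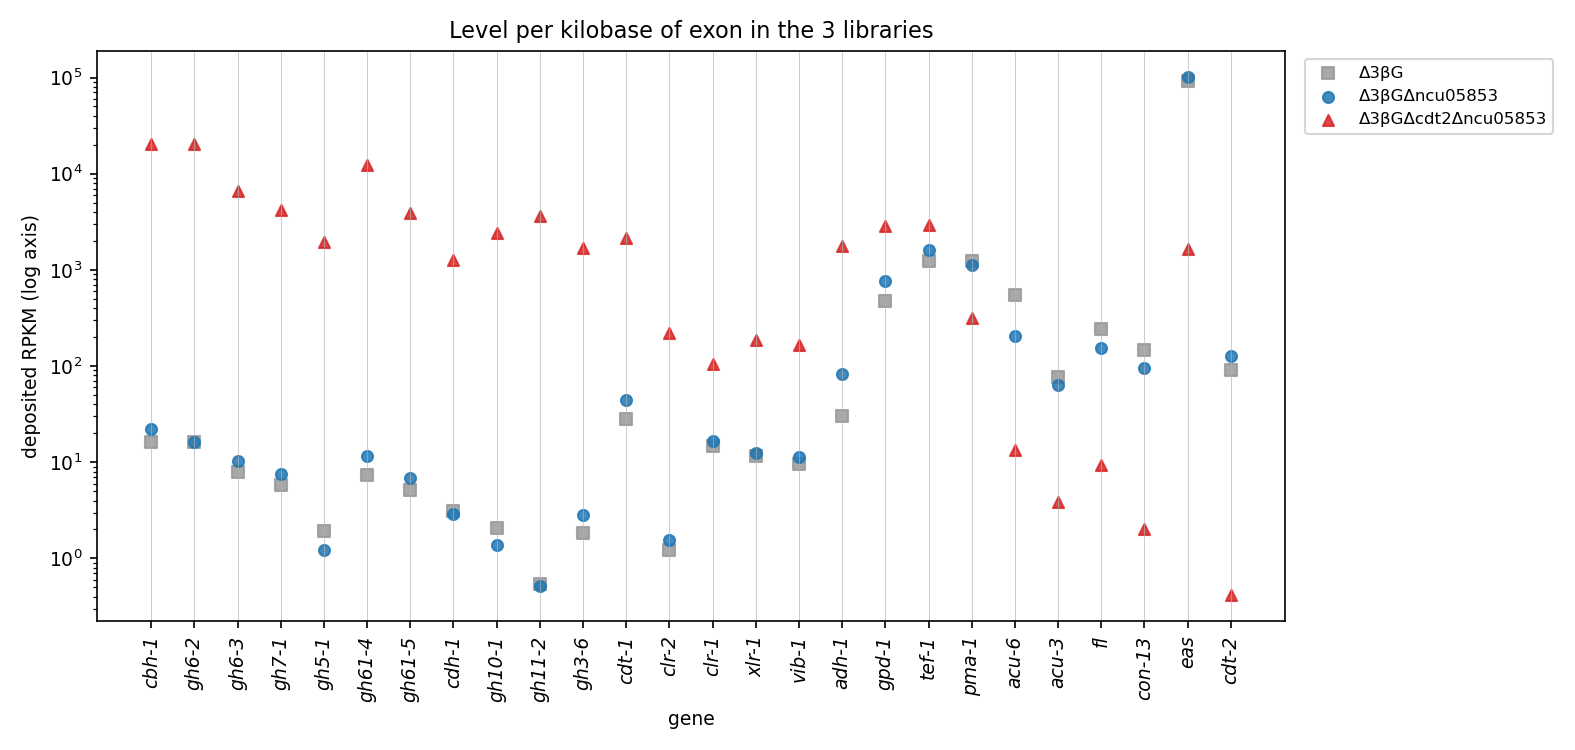
Deposited RPKM (reads per kilobase of exon, log axis) of 26 genes in the Δ3βG (grey squares), Δ3βGΔncu05853 (blue circles) and Δ3βGΔcdt2Δncu05853 (red triangles) libraries. For the enzyme and regulator genes on the left, the grey and blue points lie close together and the red triangle far above, as for clr-2 at 1.22, 1.54 and 223. For eas, con-13 and cdt-2 on the right the red triangle lies far below. The markers of conidia and aerial hyphae drawn here, fl, con-13 and eas, are all lower ones. Of the 13 on that list, 6 were at least 2-fold higher and 4 lower.

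Of 10 genes of glycolysis and fermentation, 7 were past 2-fold upward and none downward, against 17.3% and 11.6% of all genes. All 10 lay above 0 (median log2 ratio 1.78). Taking eas out of the totals gave a median of 1.07 and 5 of 10 past 2-fold upward, against 641 of all 7184 genes. The largest ratio was that of alcohol dehydrogenase adh-1 (NCU01754), with 728, 2130 and 44753 reads in Δ3βG, Δ3βGΔncu05853 and Δ3βGΔcdt2Δncu05853, 26.5-fold higher (25.4 to 27.7). Pyruvate decarboxylase cfp (NCU02193), which feeds that enzyme, was 8.42-fold higher (7.72 to 9.19). The size of change differed along glycolysis: pgk, gpd-1 and emp-7 (enolase) were 4.83-fold (4.60 to 5.07), 4.58-fold (4.49 to 4.67) and 3.67-fold (3.56 to 3.78) higher. In between, ace-8 and fba were 3.20-fold (3.04 to 3.38) and 3.07-fold (2.97 to 3.19) higher. Hexokinase emp-1, gpi-1 and emp-3 (phosphofructokinase) were 1.74-fold (1.64 to 1.84), 1.90-fold (1.81 to 1.99) and 1.69-fold (1.55 to 1.83) higher.

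Gluconeogenesis and the glyoxylate cycle, which build sugar from small carbon compounds, went the other way. Phosphoenolpyruvate carboxykinase acu-6 (NCU09873) had 13996, 5502 and 352 reads in the 3 libraries, 12.4-fold lower (11.1 to 13.8) in Δ3βGΔcdt2Δncu05853 than in Δ3βGΔncu05853. Isocitrate lyase acu-3 (NCU04230) and malate synthase acu-9 (NCU10007), the key enzymes of the glyoxylate cycle, were 13.2-fold (10.96 to 16.1) and 13.6-fold (11.6 to 16.1) lower. Fructose bisphosphatase fbp-1 (NCU04797) was 9.06-fold lower (7.45 to 11.1). The acetyl-CoA synthetase gene acu-5 (NCU06836) was 3.48-fold higher (3.21 to 3.78). That leaves 4 of 5 at least 2-fold lower, against 11.6% of all genes, with a list median of -3.63.

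Peroxins, which build the peroxisomes that also house the glyoxylate cycle, were low throughout. All 20 had log2 ratios below 0, from -2.57 for pex20 (NCU04062) to -0.02 for pex4, with a median of -0.95. Of these, 9 were at least 2-fold lower, against 11.6% of all genes. pex20, a receptor helper of peroxisomal import, had 329 reads in Δ3βG, 272 in Δ3βGΔncu05853 and 36 in Δ3βGΔcdt2Δncu05853, 5.99-fold lower (4.22 to 8.73). On library totals 14 of the 20 were at least 2-fold lower, against 1644 of all 7184 genes. On totals without eas 18 were, against 2630 of all genes.

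Starch and sucrose enzymes split. Invertase inv (NCU04265), which splits sucrose, was 12.1-fold higher (9.47 to 15.7), while glucoamylase gla-1 (NCU01517) was 5.56-fold lower (5.26 to 5.87) and gh13-2 (NCU09805) 12.3-fold lower (8.11 to 19.4). The family 13 gene gh13-1 (NCU08131), with 34568 and 43371 reads, was 1.58-fold higher (1.56 to 1.61).

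Differences in both directions were seen for markers of aerial hyphae and conidia, cell types that a mycelial culture can also hold. Of 13, 6 were at least 2-fold higher and 4 lower, against 17.3% and 11.6% of all genes, with a median log2 ratio of 0.76. Their summed share of gene reads was 19.8% in Δ3βG, 20.9% in Δ3βGΔncu05853 and 1.26% in Δ3βGΔcdt2Δncu05853. Most of that sum in the first 2 was eas, which alone held 18.7%, 20.02% and 0.305%, so the fall of the sum is that of eas. None of the 13 was at 0 reads. eas, the hydrophobin that coats conidia and aerial hyphae, had 1601335 reads in Δ3βG, 1894848 in Δ3βGΔncu05853 and 29903 in Δ3βGΔcdt2Δncu05853, 50.2-fold lower (49.7 to 50.8). con-13 (NCU07324) was 39.1-fold lower (25.7 to 62.6), the conidiation regulator fl (NCU08726) 13.2-fold (11.8 to 14.8) and al-3 (NCU01427), of carotenoid synthesis, 4.83-fold (4.60 to 5.08). Higher were ccg-14 (NCU07787), 9.18-fold (7.21 to 11.8), ccg-9 (NCU09559), 7.27-fold (6.20 to 8.56), and, by 2.07-fold to 2.45-fold, con-8, con-10, al-1 and al-2. Under library totals 2 of the 13 were at least 2-fold higher in place of 6, against 864 of all 7184 genes. In bulk RNA, fewer cells of a type and less RNA per cell cannot be told apart, and what part these cell types had in the other differences was not tested.

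Cytosolic ribosomal protein genes were higher, and respiratory genes differed less. All 7 cytosolic ribosomal protein genes with a symbol were at least 2-fold higher, from 2.89-fold for crp-5 (2.70 to 3.09) to 5.63-fold for crp-10 (5.20 to 6.10), and 5 were so on library totals without eas. Over all 7184 genes, 17.3% were at least 2-fold higher, and 641 genes were so on library totals without eas. The mitochondrial ATP synthase genes atp-1 and atp-2 were 2.82-fold (2.71 to 2.94) and 2.19-fold (2.13 to 2.26) higher. Each of the 29 genes of respiratory complex I lay above 0 (median log2 ratio 0.76) and 4 were past 2-fold upward, a share under the 17.3% of all genes, and on library totals without eas 16 of 29 were above 0. The 16 genes of the tricarboxylic acid cycle had a median of 0.29, which turned to -0.42 on those totals. For 14 respiratory genes outside complex I, 4 lay below 0, and the median of 0.21 turned to -0.49 on those totals. Of the 14, 2 were at least 2-fold higher and 1 lower, against 17.3% and 11.6% of all genes. That 1 was the cytochrome c gene cyc-1 (NCU01808), lower by 4.79-fold (4.14 to 5.57).

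A few housekeeping lists lay below 0 with no member past 2-fold on TMM scaling. Over all 7184 genes, 1644 were at least 2-fold lower on library totals and 2630 on totals without eas. The 30 proteasome genes had a median log2 ratio of -0.26 with 26 below 0, although 14 were past 2-fold on totals without eas, and the 18 genes of mitochondrial protein import a median of -0.29 with 13 below 0, where 4 were past 2-fold on library totals and 9 on totals without eas. The 9 histone genes had a median of -0.06 and a range of -0.45 to 0.23, with 2 past 2-fold on totals without eas. Among them hH3 (NCU01635), one of the 10 genes with most reads in Δ3βGΔncu05853, was 1.34-fold lower (1.32 to 1.36). DNA repair genes named mus stood lower, with a median of -0.68 and 18 of 21 below 0. On TMM scaling 4 were at least 2-fold lower, against 11.6% of all genes. On library totals 12 were, against 1644 of all 7184 genes. Among the 4 was mus-53 (NCU06264), a DNA ligase gene, 2.95-fold lower (2.52 to 3.48).

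**Figure D4:**
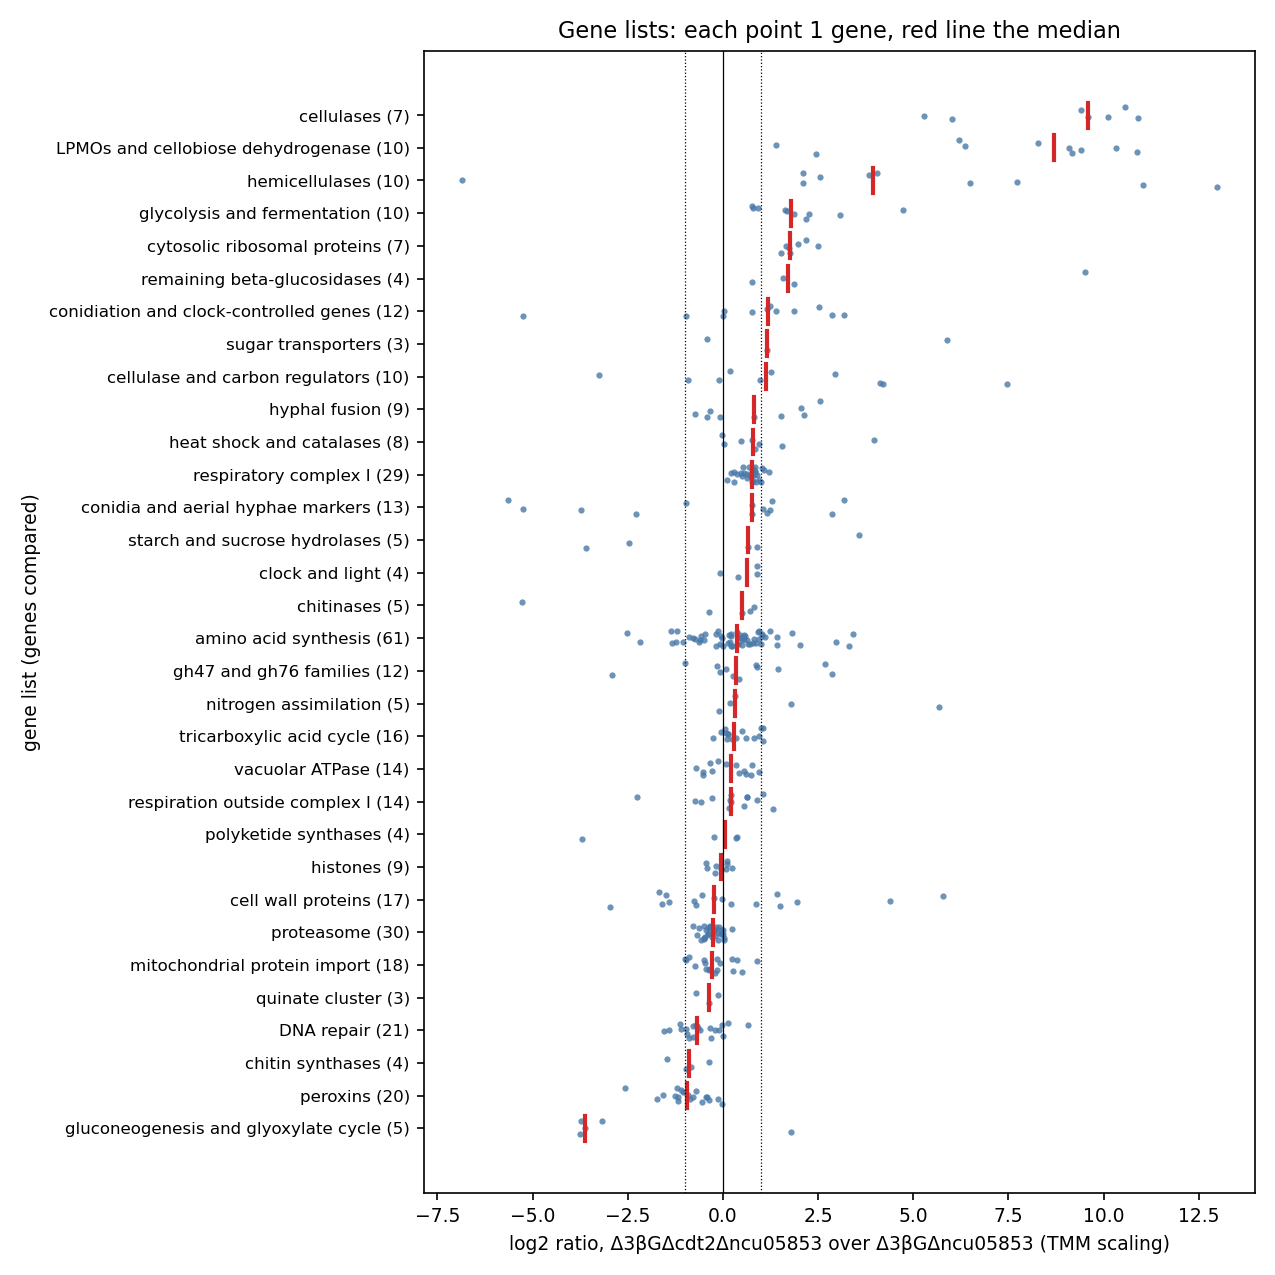
Log2 ratio of Δ3βGΔcdt2Δncu05853 over Δ3βGΔncu05853 for the genes of 32 lists with at least 3 genes compared, 1 point a gene and a red line at the median, with dotted lines at 2-fold and the number of genes in brackets. Medians run from 9.60 for cellulases to -3.63 for gluconeogenesis and the glyoxylate cycle, and proteasome and complex I genes form tight groups.

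Cell wall protein genes lay on both sides. Of 17, 5 were at least 2-fold higher and 5 lower, against 17.3% and 11.6% of all genes. They ran from acw-8 (NCU07277), 55.2-fold higher (48.9 to 62.6), to acw-3 (NCU05667), 7.83-fold lower (7.50 to 8.18), and acw-4 (NCU09263) was 3.20-fold lower (3.09 to 3.31). The chitin synthase gene chs-4 (NCU09324) was 2.75-fold lower (2.58 to 2.94), and all 4 chitin synthase genes compared lay below 0. The chitinase gene gh18-4 (NCU04883) was 39.0-fold lower (29.2 to 53.2), while the other 4 chitinase genes compared were within 2-fold. Of 9 genes of hyphal fusion, 4 were at least 2-fold higher, with ham-6 at 5.85-fold (5.36 to 6.39) and ham-8 at 4.41-fold (4.25 to 4.57). The proton pump gene pma-1 (NCU01680), among the 10 most abundant of Δ3βGΔncu05853, was 2.90-fold lower (2.84 to 2.96).

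Amino acid synthesis genes showed no common direction. Of 5 nitrogen assimilation genes, 2 were at least 2-fold higher and 0 lower, against 17.3% and 11.6% of all genes. The median log2 ratio of these 5 was 0.32, and it turned to -0.39 on library totals without eas. Of 61 amino acid genes, 12 were at least 2-fold higher and 7 lower, shares near the 17.3% and 11.6% of all genes, with a median of 0.38 that turned to -0.32 on library totals without eas. The tryptophan synthase gene trp-3 (NCU08409) was 9.89-fold higher (8.80 to 11.1), and ilv-2 (NCU03608), of branched-chain amino acid synthesis, 5.74-fold lower (4.81 to 6.90). Nitrite reductase nit-6 (NCU04720) had 68, 164 and 6722 reads in Δ3βG, Δ3βGΔncu05853 and Δ3βGΔcdt2Δncu05853, 51.7-fold higher (44.3 to 60.7), and nitrate reductase nit-3 was 3.45-fold higher (2.56 to 4.71). The catalase gene cat-3 (NCU00355) was 15.9-fold higher (13.1 to 19.3), whereas cat-1 and cat-2 stood at 0.02 and -0.02.

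The lists not yet described were mixed, and their counts stand beside 17.3% of all genes at least 2-fold higher and 11.6% lower. Of 12 conidiation and clock-controlled genes, some of which are also on the marker list, 7 were at least 2-fold higher and 1 lower, with a median log2 ratio of 1.20. This list holds only genes whose symbol begins with con or ccg. It leaves out eas, fl, acon-2 and acon-3, each at least 2-fold lower. ccg-15 (NCU08936), among the 10 most abundant of Δ3βGΔncu05853, stood at 0.01. Of 8 heat shock and catalase genes 2 were higher, and of 12 mannosidase and mannanase genes of the gh47 and gh76 families 3 were higher and 1 lower. None of 4 clock and light genes, 14 vacuolar ATPase genes, 3 quinate genes and 2 genes of folding and secretion was past 2-fold, and of 4 polyketide synthase genes 1 was lower.

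The tails of the distribution were in part genes without a symbol. Highest of all was NCU04870, with 2 reads in Δ3βG, 0 in Δ3βGΔncu05853 and 5608 in Δ3βGΔcdt2Δncu05853, at least 2358-fold higher over the floor of 3 reads. NCU04169 had 4 and 10340 reads, 3261-fold higher (1273 to 11972), and NCU08785 had 8 and 17193 reads, 2711-fold higher (1376 to 6281). NCU00449, with 4 and 4087 reads, was 1289-fold higher (503 to 4733). NCU09416, with 0 and 448 reads, was at least 188-fold higher. By gain in CPM, 3 genes without a symbol were among the 10 largest. NCU08756 had 4984, 5535 and 119666 reads in Δ3βG, Δ3βGΔncu05853 and Δ3βGΔcdt2Δncu05853, 27.3-fold higher (26.6 to 28.03). NCU04522 had 2227, 3158 and 62896 reads, 25.1-fold higher (24.2 to 26.05), and NCU03600 had 16032, 19756 and 81200, 5.19-fold higher (5.11 to 5.27). By loss in CPM, NCU00673 had 49299 reads in Δ3βGΔncu05853 and 17561 in Δ3βGΔcdt2Δncu05853, 2.23-fold lower (2.19 to 2.26). NCU16822 had 38562 and 14945, 2.05-fold lower (2.01 to 2.08), NCU06986 had 24891 and 6360, 3.10-fold lower (3.02 to 3.19), and NCU00935 had 13882 and 1914, 5.75-fold lower (5.48 to 6.03). At the low end app (NCU04533) had 2579 reads in Δ3βG, 3518 in Δ3βGΔncu05853 and 6 in Δ3βGΔcdt2Δncu05853, 465-fold lower (213 to 1267). NCU09734, with 59037 reads in Δ3βGΔncu05853 and 345 in Δ3βGΔcdt2Δncu05853, was 136-fold lower (122 to 151), and NCU05858 and NCU03861 were 64.0-fold (50.5 to 82.4) and 72.0-fold (45.4 to 122) lower. NCU05093 and NCU08711, with 0 reads in Δ3βGΔcdt2Δncu05853, were at least 41.0-fold and 38.3-fold lower. NCU00850, NCU09859, NCU05596, NCU00852, NCU09391 and NCU05932 had 1 to 3 reads there against 168 to 523, and NCU01402 had 9 against 1031.

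Genes past 4-fold often lay beside each other. In the RefSeq gene order, 157 of the 498 genes at least 4-fold higher (31.5%) had a direct neighbour that was also at least 4-fold higher, and 9.70% of all genes compared had such a neighbour. For the 242 genes at least 4-fold lower the values were 19.4% and 4.83%. There were 15 runs of 3 or more higher genes, the longest of 5 (NCU05161 to NCU05165, log2 ratios 2.40 to 3.36), and 3 runs of lower genes. A lower run of 4 held NCU04861, NCU04862, pks-3 and ada-6, a polyketide synthase and a regulator of development, which were 13.01-fold (11.6 to 14.6) and 30.1-fold (25.3 to 36.1) lower in the latter 2. No enrichment test was made. With strand use not stated, reads of overlapping neighbours cannot be separated.

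Genes beside cdt-2 stood higher on both sides. Of its 3 neighbours on each side, 5 had enough reads to compare and all 5 were past 2-fold upward in Δ3βGΔcdt2Δncu05853. NCU08113, next to cdt-2, had 17 reads in Δ3βG, 11 in Δ3βGΔncu05853 and 797 in Δ3βGΔcdt2Δncu05853, 91.4-fold higher (50.8 to 184). On the other side msh3 (NCU08115), a mismatch repair gene, had 367, 459 and 3996 reads, 10.98-fold higher (9.97 to 12.1). Around clp1, which both strains lack, 5 of 6 neighbours were at least 2-fold higher, among them NCU05854 by 17.2-fold (15.1 to 19.6) and NCU05855 by 24.1-fold (20.5 to 28.6). Around gh1-1 1 of 6 was higher and 1 lower, around gh3-4 2 of 5 were higher, and around gh3-3 3 of 3. Over all genes compared, 17.3% were at least 2-fold higher and 11.6% lower, and the gh1-1 counts are near those shares. These neighbours were chosen after their values were seen, and whether the deletions bear on them was not tested.

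**Figure D5:**
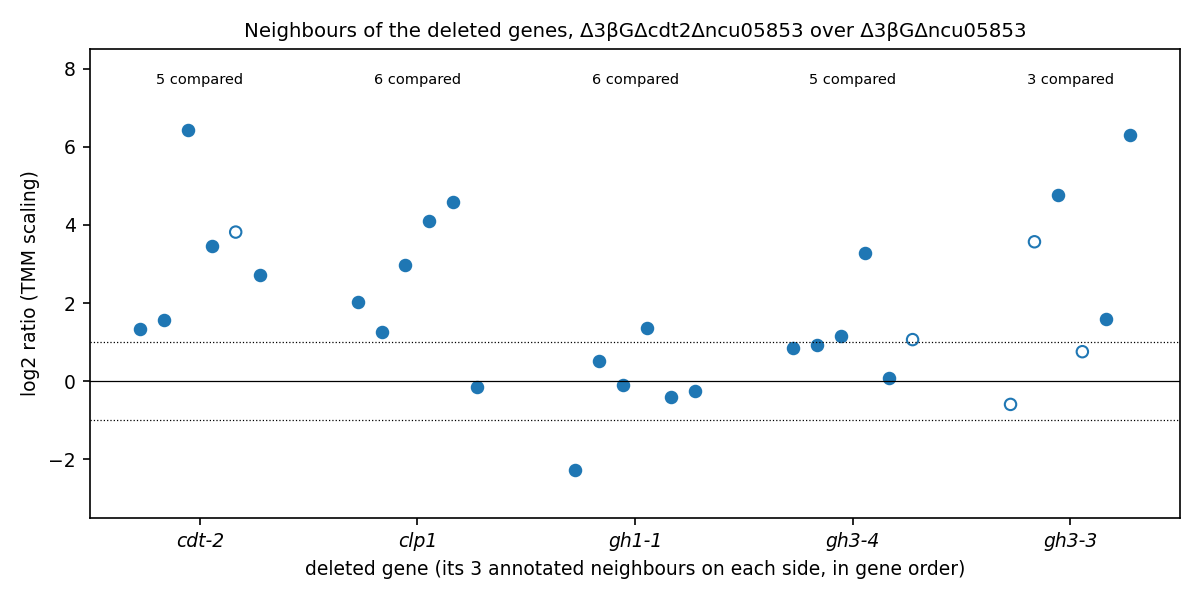
Log2 ratio of Δ3βGΔcdt2Δncu05853 over Δ3βGΔncu05853 for the 3 annotated neighbours on each side of each deleted gene, in gene order from left to right. Filled points had at least 100 reads over both libraries, open points had fewer, and dotted lines mark 2-fold. The neighbours of cdt-2 and all but 1 of clp1 lie above the upper dotted line.

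The share of higher genes varied with level and length. Genes were put into 4 equal bins. In the bin with the lowest deposited RPKM in Δ3βGΔncu05853, up to 8.47, 30.8% were at least 2-fold higher and 6.79% lower. In the bin with the highest RPKM the shares were 15.1% and 16.8%. That level is also the denominator of the ratio, so the trend is a description. By exon length, 24.7% of the shortest bin (255 to 1630 bases) and 11.1% of the longest (3129 to 32688 bases) were at least 2-fold higher, while the lower genes made up 10.2% and 10.4%. At the edge of the minimum, 42.3% of the 104 genes with 100 to 110 reads and 33.3% of the 90 genes with 90 to 99 reads were at least 2-fold apart.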

How the data were processed

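The authors deposited 1 table per library with read counts per gene, RPKM and exon length; TopHat and HTSeq are named in the submitters' processing notes. Tool versions, settings, genome build, annotation and strand use were not given in the sources used here. RPKM, as deposited, is the read count per kilobase of exon, scaled to depth; recomputation showed that the authors' scaling used every read in the table, and it served to compare levels between genes. Rows that name no gene were left out of library sizes: genes held 85.8% of reads in Δ3βGΔncu05853 and 91.5% in Δ3βGΔcdt2Δncu05853, reads outside genes 8.41% and 5.16%, and reads with several alignments 4.91% and 2.48%, which can lower the count of genes with close copies.

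Counts were scaled with TMM factors over the 3 libraries (edgeR 4.0.16, R 4.3.3), 1.09 and 0.833 for the strains compared, and log2 ratios carry a prior of 0.5 counts. Folds carry no prior and have an exact 95% Clopper-Pearson interval, which covers counting error only, since PCR reads are not independent molecules. A count of 0 was set to a floor of 3 reads. Scaling and ratios were also run on simulated data with changes of 4-fold only, which cannot show how the scaling handles a fall as large as that of eas. Lists hold genes that the RefSeq table of assembly NC12 gives a symbol (1118 of 9730). Planned genes without a symbol were left out, so a list can miss much of its class. Kept were 11 of 24 planned hemicellulase genes, 3 of 28 sugar transporters, 10 of 15 regulators and 3 of 8 pectin-degrading genes. The lists numbered 36, and 9 of them were added later. The members and lists were chosen with earlier results of these data known. Named were the 15 highest and 15 lowest ratios, the 10 genes with most reads in each library, the 10 largest rises and falls in CPM, deleted genes and, as examples, list members; the others of a list are given as counts. Promoter sequences were not used here, so no promoter words are described.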

Additional observations from a re-analysis of the deposited data

How the results depend on the processing

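Counts past 2-fold and 4-fold were recomputed under 6 other scalings, a prior of 5 counts, the deposited RPKM and other minimum counts. TMM over the 2 libraries gave the ratio of the 3-library factors. Lower genes at 2-fold numbered 1644 on library totals, 1390 on all reads, 2630 on totals without eas, 1676 without the 50 genes with most reads and 1396 from RPKM, against 834, and they were 555 at a minimum of 500 reads and 1318 at a minimum of 1. Higher genes at 2-fold numbered 641 on totals without eas, where 4-fold genes numbered 290 higher and 533 lower; at a minimum of 1 read 437 were 4-fold lower. Lists with a median at least 1 below 0 numbered 1, but 4 on library totals, 3 on all reads, 5 without eas, 4 without the 50 genes and 3 from RPKM. Of the 32 lists, 10 medians changed sign on a scaling. Of 176 named genes at least 2-fold apart, 137 stayed past 2-fold under every setting tried for them. All 176 kept their direction, but the largest shift by scaling was -0.70, too small to turn a 2-fold ratio, so this was fixed in advance. Promoter words were not run. No paired analysis was possible because each strain had 1 library. Depth limits the outer ratios, since 9 of the 15 highest had at most 30 reads in Δ3βGΔncu05853 and 13 of the 15 lowest at most 30 in Δ3βGΔcdt2Δncu05853, and no value here measures the spread between cultures.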

Other observations

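Some further genes with a RefSeq symbol were at least 8-fold apart and belong to no list. They were chosen after their values were seen. Of 246 genes at least 8-fold higher, 49 had a symbol and 11 of these were outside the lists, and of 107 genes at least 8-fold lower the numbers were 19 and 6. Highest of the 11 was mfa-1 (NCU16992), which encodes a mating pheromone precursor, with 460 reads in Δ3βG, 368 in Δ3βGΔncu05853 and 50828 in Δ3βGΔcdt2Δncu05853, 174-fold higher (157 to 194). The pheromone receptor gene pre-2 (NCU05758) was 5.67-fold higher (4.39 to 7.41) and pre-1 (NCU00138) stood at a log2 ratio of 0.48. The mating type genes matA-1, matA-2 and matA-3 had 0 reads in each of the 3 libraries, and the pheromone gene ccg-4 had 1, 0 and 0.

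Glutamate dehydrogenases went opposite ways. am (NCU01195), for the NADP-dependent enzyme that assimilates ammonium, had 149, 160 and 7933 reads in Δ3βG, Δ3βGΔncu05853 and Δ3βGΔcdt2Δncu05853, 62.6-fold higher (53.5 to 73.6). gdh-1 (NCU00461), for the NAD-dependent enzyme that breaks glutamate down, had 29822, 22409 and 3739 reads, 4.75-fold lower (4.59 to 4.92). The amino acid permease gene mtr (NCU06619) was 4.27-fold lower (3.57 to 5.14), and glutamine synthetase gln-1 (NCU06724) stood at 0.38.

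Among regulators of conidiation outside the marker list, acon-3 (NCU07617) was 14.9-fold lower (11.95 to 18.7) and acon-2 (NCU00478) 2.47-fold lower (2.08 to 2.94). The chitinase gene chit-1 (NCU02184) had 10049 and 252 reads in the strains compared, 31.6-fold lower (27.9 to 36.0). Cryptochrome cry (NCU00582) was 18.2-fold higher (16.1 to 20.6) and formate dehydrogenase fdh (NCU03813) 22.8-fold (20.04 to 25.99).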
